A study of Mus musculus with 19 samples.

Results

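Tumours marked as not responding, in mice that had received carboplatin and paclitaxel, were compared with tumours of mice that had received no drug. Members were taken from the sample titles: 9 arrays marked as non-responder, after 2 weeks (4 tumours) or 3 weeks (5 tumours) of treatment, and 7 arrays marked as untreated, together 16 of the 19 arrays of the series. The other 3 arrays, treated responders, entered only the direct comparison with the nonresponders near the end. Each array measured 1 mammary adenocarcinoma of an FVB mouse with a C3(1)-Tag transgene, in which the rat C3(1) promoter drives Simian virus 40 T antigen, and every group, the untreated one included, carries it. The sources used here do not say how a response was judged, and give neither drug doses nor the ages of the mice. The untreated tumours give the comparison with no drug, and no title marks a tumour as sampled both before and after treatment.

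The large T antigen binds and disables p53 and the retinoblastoma protein, so that E2F transcription factors stay active and cells keep entering S phase. Carboplatin crosslinks DNA and paclitaxel stabilises microtubules and holds cells in mitosis, and a tumour that grows on under both is called resistant. A tumour piece also holds macrophages, lymphocytes, fibroblasts and vessels, whose RNA is measured together with that of the tumour cells. In such bulk samples fewer cells of a type and less RNA per cell cannot be told apart.

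The values are log2 ratios of tumour RNA (Cy5) over a common whole-mouse reference RNA (Cy3). The scale and the direction were read from the values and are likely, not stated; with the ratio turned, every sign below would turn. Each array held 45220 spots, of which 1.71% to 9.10% stood at exactly 0 and were taken as unmeasured, and array medians lay between -0.081 and 0.009. Keratins of simple epithelium were above the reference in all tumours, with Krt8 at 0.58 to 2.54 and Krt18 at 1.32 to 4.05 in 16 of 16, as was the epithelial surface protein Epcam at 1.05 to 3.03. The basal keratin Krt5 was below it in 16 of 16, Krt14 was above it in 13, and the epithelial cadherin Cdh1 was above it in only 5, with a median of -0.45. The number of arrays limits the precision of all values. The numbers in the titles that appear to name the mouse differ for all 16 tumours. The labels do not state that each came from a separate mouse, so the p-values measure the spread between these tumours.

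In nonresponders, the lysosomal protease Ctsd, the monocyte antigen Ly6c2, the glutathione transferase Gsta4 and the mitochondrial kinase Nme4 were among the genes that rose, by 2.07- to 3.17-fold. The lipoprotein receptor Vldlr, the macrophage lectin Chil3, the replication helicase subunit Mcm6 and the ubiquitin ligase Trim33 were among those that fell, by 1.88- to 3.78-fold. Of 18394 genes tested, 149 (0.810%) passed an adjusted p of 0.05 in limma, 86 higher (0.468%) and 63 lower (0.343%) in nonresponders than in untreated tumours. More than 2-fold differences were found for 35 of the higher and 20 of the lower genes. At an unadjusted p under 0.05 there were 3100 genes (16.9%), beside 920 given by chance. The median difference over all genes was 0.0341 and 53.5% of genes were positive. Over the 15156 genes measured in every tumour, all nonresponders lay above all untreated tumours for 49 (0.323%) and below all of them for 44 (0.290%). Of the genes that passed, 32 of 86 higher and 28 of 63 lower ones had groups without overlap.

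**Figure D1:**
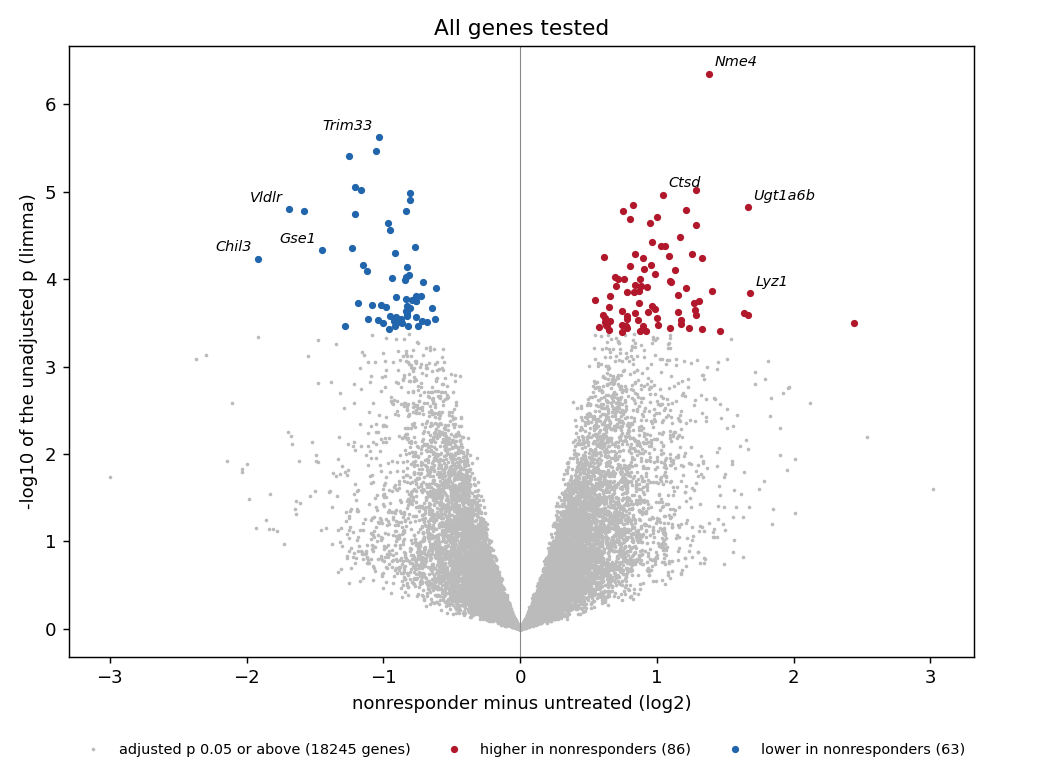
Each point is a gene, with the difference between nonresponder and untreated tumours (log2) on the horizontal axis and -log10 of the unadjusted limma p on the vertical axis. The 86 genes higher and the 63 lower at an adjusted p under 0.05 are in colour, and Nme4 stands at the top.

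These calls rested on few tumours and on groups that also differed in another respect. Without untreated tumour 6 only 2 genes passed, Nme4 and Stxbp3, while without untreated tumour 1 there were 461. The ranges of the numbers in the titles, which appear to name the mouse, overlapped between the groups only in part: 7 of the 9 nonresponders were numbered above every untreated mouse. With this number as a covariate, 0 genes passed in limma (smallest adjusted p = 0.118), with 2359 at an unadjusted p under 0.05. All 149 kept their direction and had an unadjusted p under 0.05 there. They were chosen by the same comparison in the same tumours, which favours both, so this gives no separate support. The range of numbers that both groups share holds only 3 untreated and 2 nonresponder tumours, too few to read. The sources used here do not say what orders these numbers, so treatment and anything that runs with the mouse number cannot be told apart for most tumours.

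The smallest adjusted p belonged to Nme4, a nucleoside diphosphate kinase of mitochondria. Its log2 ratio was -2.33, -1.71 and -1.21 (lowest, median and highest) in the 7 untreated tumours and -0.83, -0.38 and 0.00 in the 9 nonresponders. Every nonresponder lay above every untreated tumour. The difference was 1.39 ± 0.18 (SE), a 2.61-fold rise (limma adjusted p = 0.00818), with 1.34 and 1.42 in its 2 spots. Nme4 passed in all 16 fits that left out 1 array, with differences of 1.29 to 1.48. With the mouse number as a covariate it was 1.29 (unadjusted p = 0.000104, adjusted p = 0.118). Titles came in 2 styles, and its difference was 1.09 within the 4 arrays with a hyphen before the mouse number and 1.49 within the other 12. Of 37 genes that passed and were chosen by the naming rule, 11 moved by over 1.5 times within the 4 hyphen arrays, which hold 2 tumours of each group, and 10 of them were smaller there. Spots were filtered again within these arrays, so for some genes, such as Gse1, the spots that entered differed too.

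Ctsd encodes cathepsin D, an aspartic protease of lysosomes. It measured -0.15, 0.12 and 0.85 in untreated tumours and 1.04, 1.38 and 1.82 in nonresponders, again without overlap (1.05 ± 0.17, adjusted p = 0.0179). The unnamed transcript 5031425E22Rik went from a median of -0.95 to one of 0.49, likewise without overlap (1.29 ± 0.21, adjusted p = 0.0179).

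Among genes measured in at least 6 untreated and 8 nonresponder tumours, the largest rise was that of the lysozyme Lyz1. It measured -0.74, 0.23 and 1.64 in untreated tumours and 1.11, 2.02 and 2.79 in nonresponders (1.68 ± 0.35, 3.20-fold, adjusted p = 0.0384), so the highest untreated tumour lay within the nonresponders. Ly6c2, an antigen of inflammatory monocytes, measured -1.30, -0.11 and 1.30 in untreated tumours against 1.02, 1.68 and 2.44 (1.67 ± 0.36, adjusted p = 0.0454). Lyz1 and Ly6c2 have paralogs, as do Ang3 and Olfr971 below, and whether the spots tell these apart was not tested. Prrx2, a homeobox gene of mesenchyme, measured -3.04, -1.67 and -0.70 in untreated tumours against -1.02, 0.05 and 0.94 (1.64 ± 0.36, adjusted p = 0.0451). Within the 4 hyphen arrays Lyz1 differed by 0.64 and Prrx2 by 0.55, and within the other 12 by 2.04 and 1.99. Lyz1, Ly6c2 and Prrx2 passed in 6, 4 and 5 of the 16 fits that left out 1 array.

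Ugt1a6b and Gsta4 encode enzymes that conjugate foreign and reactive compounds. The glucuronosyltransferase Ugt1a6b measured -3.98, -2.90 and -2.04 in untreated tumours and -1.87, -1.36 and -0.60 in nonresponders, without overlap (1.67 ± 0.28, adjusted p = 0.0179). Its spots differed by 0.54 and 1.87, and the gene's value is the mean of the spots measured on each array. Both the 1.67 and the lack of overlap can therefore depend on which spots were missing. With only spots measured on every array the difference was 0.54 (limma unadjusted p = 0.0657), and with exact zeros kept as values it was 0.71. It was 0.93 within the 4 hyphen arrays. Within the other 12 it was 0.40, but spots were filtered again there, so the spots that entered differed. With the spots of the main fit, these 12 arrays ran from -3.98 to -2.21 in untreated tumours and from -1.87 to -0.60 in nonresponders. Missing spots can shift these values too. With the title style as a block the difference was 1.68. Gsta4, a glutathione transferase that clears products of lipid peroxidation, measured -2.47, -0.91 and -0.56 against -0.59, 0.36 and 1.03 (1.41 ± 0.29, adjusted p = 0.0379), and its 10 spots lay between 1.11 and 1.71.

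The ribonucleases Ang3 (1.47 ± 0.33) and Rnase4 (1.31 ± 0.28) rose, as did complement factor Cfb (1.29 ± 0.23), whose values went from a median of -1.91 to one of -0.66. Parp11, an ADP-ribosyltransferase, rose by 1.33 ± 0.30 without overlap, and Slfn2, a regulator of lymphocyte and monocyte quiescence, by 1.33 ± 0.25. In these 5 genes the adjusted p was between 0.0191 and 0.0487. Of the 16 fits that left out 1 array, Ang3 passed in 3, Rnase4 in 5, Cfb in 14, Parp11 in 1 and Slfn2 in 9. Rnase4 differed by 0.53 within the 4 hyphen arrays and by 1.55 within the other 12. The pseudogene Phf8-ps had a larger difference (2.44 ± 0.51, adjusted p = 0.0461) but was measured in only 4 untreated tumours.

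The largest fall was that of Chil3, a chitinase-like lectin secreted by alternatively activated macrophages and neutrophils. It measured -0.22, 1.67 and 2.39 in untreated tumours and -1.41, -0.57 and 0.47 in nonresponders (-1.92 ± 0.36, 3.78-fold lower, adjusted p = 0.0273). The groups overlapped only through 1 low untreated tumour. Vldlr, a receptor for triglyceride-rich lipoproteins and reelin, measured -1.10, 0.24 and 1.01 against -2.34, -1.68 and -0.79 (-1.69 ± 0.29, adjusted p = 0.0179), and its lowest untreated value, in tumour 7, stood apart from the other 6.

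Several of the falls separated the groups completely. Sun1, a protein of the inner nuclear membrane that links the nucleus to the cytoskeleton, measured 0.89, 1.46 and 1.98 in untreated tumours and -0.20, 0.07 and 0.59 in nonresponders (-1.25 ± 0.19, adjusted p = 0.0179). Trim33, a ubiquitin ligase of TGF-beta signalling, measured 0.96, 1.34 and 1.86 against -0.04, 0.36 and 0.70 (-1.03 ± 0.15, adjusted p = 0.0179). Stxbp3, which regulates vesicle fusion at the plasma membrane, measured 0.67, 1.05 and 1.46 against -0.24, -0.01 and 0.57 (-1.06 ± 0.16, adjusted p = 0.0179) and passed in all 16 fits without 1 array. No untreated tumour was as low as any nonresponder for these 3 genes.

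Cox20, an assembly factor of cytochrome c oxidase, fell by 1.21 ± 0.20 and the mRNA deadenylase Cnot6l by 1.19 ± 0.25, both without overlap. Zgrf1, Gse1, Fam199x and the olfactory receptor gene Olfr971 also fell without overlap, by 1.21, 1.45, 1.23 and 1.58. Of these, Gse1 was -0.51 with exact zeros kept as values and -0.61 within the 4 hyphen arrays. In both settings spots outside the main fit could enter. With the spots of the main fit, Gse1 was -0.30 and 1.54 in the 2 untreated hyphen tumours. In the 2 nonresponder ones it was -1.12 and -0.52, and with the title style as a block the difference was -1.44. With the mouse number as a covariate Olfr971 was smaller by over 1.5 times. Pfas, an enzyme of purine synthesis, fell by 1.15 ± 0.22, but its spots gave -1.90 and -0.40. Fam133b (-1.28 ± 0.29) and the zinc finger gene Zfp948 (-1.16 ± 0.19, and -0.74 with the mouse number as a covariate) overlapped with untreated tumours. Fam133b passed in 2 and Zfp948 in 15 of the 16 fits without 1 array. Smaller falls with the same low p were those of the RNA-binding protein Zfr (-0.81 ± 0.13, 4 spots from -1.26 to -0.06) and of Nkap, a nuclear regulator of transcription and splicing (-0.80 ± 0.13).

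**Figure D2:**
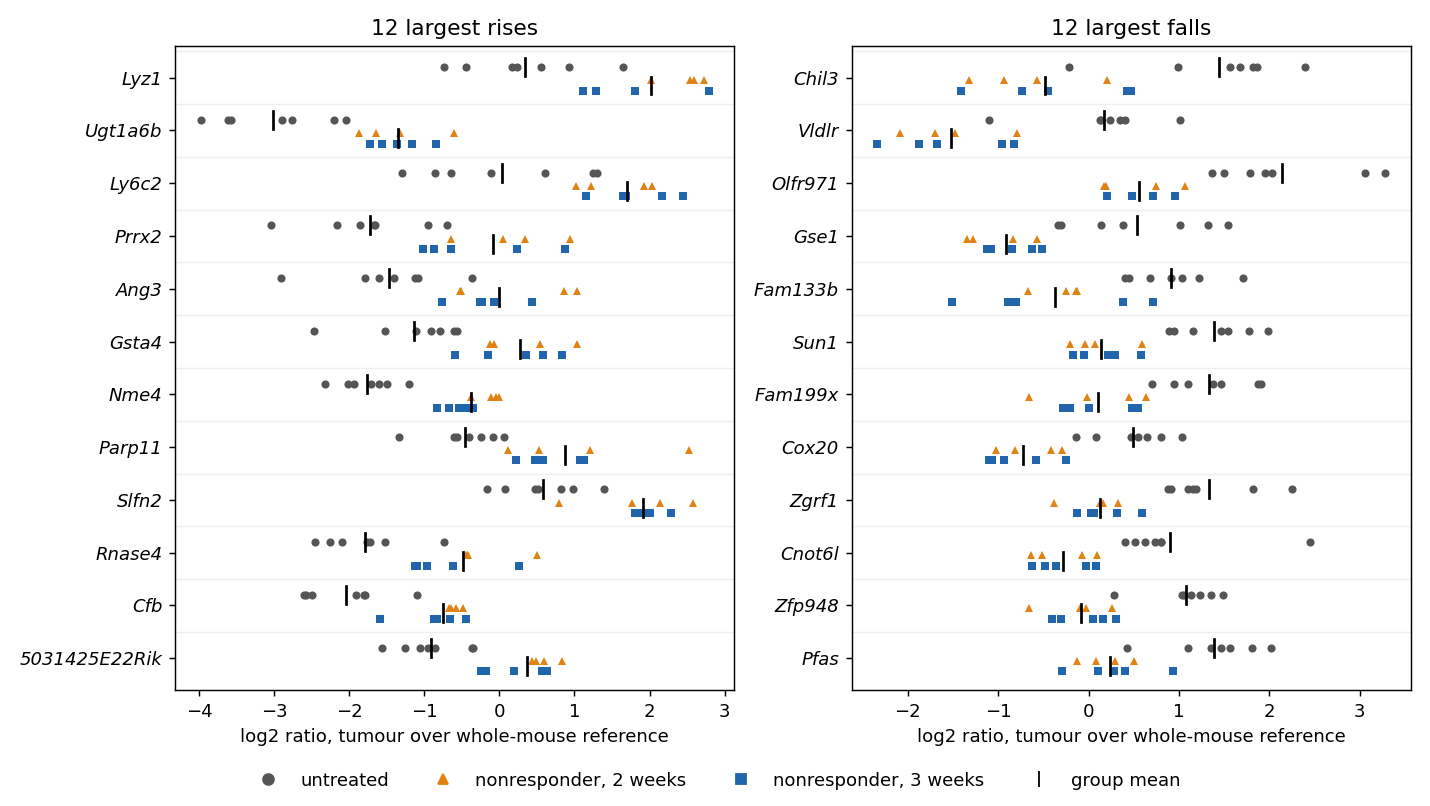
Each point is a tumour's log2 ratio for 1 of the 12 genes with the largest rises (left) or falls (right), with untreated tumours as circles, nonresponders after 2 weeks as triangles, nonresponders after 3 weeks as squares and black ticks at the group means of 7 and 9 tumours. Triangles and squares are mixed for most genes, and Nme4, Sun1 and Olfr971 show no overlap between treated and untreated tumours.

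Nonresponders varied in how far they stood from the untreated tumours. Over the genes that passed, nonresponder 5 lay beyond the whole untreated range for 97.3% and nonresponder 8 for 75.2%, with the other 7 between 84.6% and 95.3%. The choice of these genes favours a high share in every nonresponder. Nonresponder 8, after 3 weeks, is also the tumour with the lowest mouse number of the 9, and its median rise was 0.69 beside 0.80 to 1.08 in the other 8. Nonresponder 9, with the next lowest number, was at 91.9% with a median rise of 1.05. Nonresponder 7, with the highest number, was at 85.2% and 0.89. A relation to the mouse number was not tested.

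The gene lists were read by their counts and medians. Untreated tumour 4 stood apart here: in 13 of the 35 lists its mean was the lowest of the 16 arrays. Without it the medians of interferon-stimulated, antigen presentation, macrophage, fibroblast and p53 target genes, given below with all tumours, were 0.54, 0.48, 0.54, 0.53 and 0.34. Those of mitosis and of hypoxia and glycolysis genes turned, to 0.03 and -0.12.

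Interferon-stimulated genes, which infected or stressed cells switch on through STAT and IRF factors, had a median difference of 0.64, and 33 of 34 measured members were positive, beside 53.5% of all genes. None of them passed the test, while 15 of 34 had an unadjusted p under 0.05, beside 16.9% of all genes. The smallest p was that of Ifit3, which binds viral RNA together with its relatives. It measured -0.62, 0.36 and 0.85 in untreated tumours and 0.64, 1.17 and 1.42 in nonresponders (0.81 ± 0.20, adjusted p = 0.0583). Bst2, a membrane protein that tethers budding virus, measured -0.96, 1.21 and 1.68 against 1.07, 2.47 and 3.11 (1.51 ± 0.38, adjusted p = 0.0641). The ubiquitin-like modifier Isg15 differed by 0.85 ± 0.22 (adjusted p = 0.0686) and the antiviral radical SAM enzyme Rsad2 by 1.15 ± 0.31 (adjusted p = 0.0775). The mean over the list ran from 0.78 in untreated tumour 4 (the next was 1.29) to 2.22 among untreated tumours and from 1.79 to 2.67 among nonresponders, so 5 of 9 nonresponders lay above every untreated tumour.

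Genes that interferon induces are bound at the interferon-stimulated response element, with the core GAAANNGAAA. On either strand, this core stood in the promoter (a window of 300 bases, most of it before the start) of 17 of the 27 list members with a promoter in the RefSeq table (63.0%), beside 3.99% of 27025 genes. Among genes that passed as higher it stood in 3 of 66 (4.55%), a share near that of all genes, and among those that passed as lower in 3 of 51 (5.88%). The 4 list members with the smallest p are shown first, followed by the 3 genes that passed as higher and hold the core: Tgtp1, an interferon-inducible GTPase, Parp11, and Tgm1, a transglutaminase of squamous epithelium. Sequences are from RefSeq, GRCm38.p6, on the strand of the gene, with the core in capitals (there as its reverse complement where it lies on the opposite strand). They come from chr19:34583387-34583436 (plus strand) for Ifit3, chr8:71537573-71537622 (minus) for Bst2, chr4:156200867-156200916 (minus) for Isg15, chr12:26456543-26456592 (minus) for Rsad2, chr11:48992294-48992343 (minus) for Tgtp1, chr6:127446776-127446825 (plus) for Parp11 and chr14:55713705-55713742 (minus) for Tgm1.
Ifit3: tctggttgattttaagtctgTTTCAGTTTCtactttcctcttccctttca
Bst2: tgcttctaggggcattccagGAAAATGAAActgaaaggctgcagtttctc
Isg15: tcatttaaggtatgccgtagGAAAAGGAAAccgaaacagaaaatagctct
Rsad2: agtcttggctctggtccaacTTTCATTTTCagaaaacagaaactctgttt
Tgtp1: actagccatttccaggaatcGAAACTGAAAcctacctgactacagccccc
Parp11: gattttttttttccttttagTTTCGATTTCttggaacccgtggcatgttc
Tgm1: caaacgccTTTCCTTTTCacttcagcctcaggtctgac

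Tgtp1 rose from a median of 0.05 to one of 1.01 (1.18 ± 0.26, adjusted p = 0.0461). It was chosen after its values were seen, as were Epsti1 (1.22 ± 0.25, adjusted p = 0.0361), Ube2l6, the conjugating enzyme for Isg15 (0.78 ± 0.17, adjusted p = 0.0454), and the antiviral helicase Mov10 (0.60 ± 0.13, adjusted p = 0.0454). These 3 are also known as interferon-inducible and passed, although no member of the list did.

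Antigen presentation genes had a median difference of 0.55, with 21 of 22 positive and 0 past the test in limma, 9 of them at an unadjusted p under 0.05 (16.9% of all genes). Psmb10, a subunit of the immunoproteasome that cuts peptides for MHC class I, measured 0.20, 0.32 and 0.80 in untreated tumours and 0.71, 1.07 and 1.72 in nonresponders (0.72 ± 0.17, adjusted p = 0.0546). The peptide transporter Tap1 differed by 0.92 ± 0.30 (adjusted p = 0.130). The list's mean was 1.10 to 2.05 in untreated tumours and 1.96 to 2.54 in nonresponders, and 7 of 9 nonresponders lay above every untreated tumour.

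Of 27 macrophage and monocyte genes, 4 rose and 1 fell, beside 0.468% and 0.343% of all genes, and 23 were positive, with a median of 0.62. Fcer1g, the signalling chain shared by Fc receptors, measured -0.21, -0.04 and 0.61 in untreated tumours and 0.42, 1.31 and 1.83 in nonresponders (1.09 ± 0.21, adjusted p = 0.0273). The IgG receptor Fcgr3 measured -0.30, 0.39 and 1.29 against 1.24, 1.51 and 2.43 (1.13 ± 0.22, adjusted p = 0.0318). Lyz1 and Ly6c2 were the other rises and Chil3 the fall. The members did not move alike: the arginase Arg1 differed by 1.82 ± 0.45 (adjusted p = 0.0641) and complement C1qa by 0.98 ± 0.29, while the pan-macrophage receptor Adgre1 differed by -0.03 ± 0.23, Itgam by -0.21 ± 0.39 and the scavenger receptor Cd163 by -0.71 ± 0.38. The list's mean was -0.02 to 0.78 in untreated tumours and 0.72 to 1.51 in nonresponders, above every untreated tumour in 8 of 9.

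Another 8 genes that passed are named here because of their known roles, chosen after their values were seen. Genes of like roles that did not pass were not counted. The myeloid inhibitory receptor Lilrb4a rose by 1.27 ± 0.27, the haematopoietic actin regulator Hcls1 by 1.10 ± 0.25 and properdin, Cfp, by 1.10 ± 0.22. The subunits of the phagocyte oxidase Cyba (0.99 ± 0.21) and Rac2 (0.96 ± 0.21) rose too. Besides Ctsd, the lysosomal enzymes Ctsa (0.81 ± 0.16), Fuca1 (1.00 ± 0.22) and Aga (1.01 ± 0.23) rose, Ctsa without overlap. The adjusted p of these 8 genes lay between 0.0310 and 0.0471. These genes are expressed in macrophages and other cells alike, and the part of macrophages in their rise was not tested.

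T and NK cell genes had a median of 0.39, with 22 of 26 positive and 0 past the test (6 higher and 1 lower at an unadjusted p under 0.05, beside 16.9% of all genes in either direction). Granzyme Gzmb, of cytotoxic cells, measured -0.36, 0.09 and 0.71 in the 6 untreated tumours where it was measured and 0.25, 0.94 and 2.90 in nonresponders (1.04 ± 0.35, adjusted p = 0.133). The T cell receptor chain Cd3e differed by -0.06 and was among the few members that were not positive. Its partner Cd3d ran from -2.57 to -0.49 in untreated tumours and from -2.02 to 0.39 in nonresponders. Cd3g ran from -1.58 to 0.07 and from -0.89 to 1.03. Genes of B and plasma cells, neutrophils, mast cells, erythroid cells and endothelium had medians of 0.34, 0.24, 0.24, 0.16 and 0.21, none with a member that passed. Without untreated tumour 4 those of neutrophils and endothelium were 0.10 and 0.12.

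**Figure D3:**
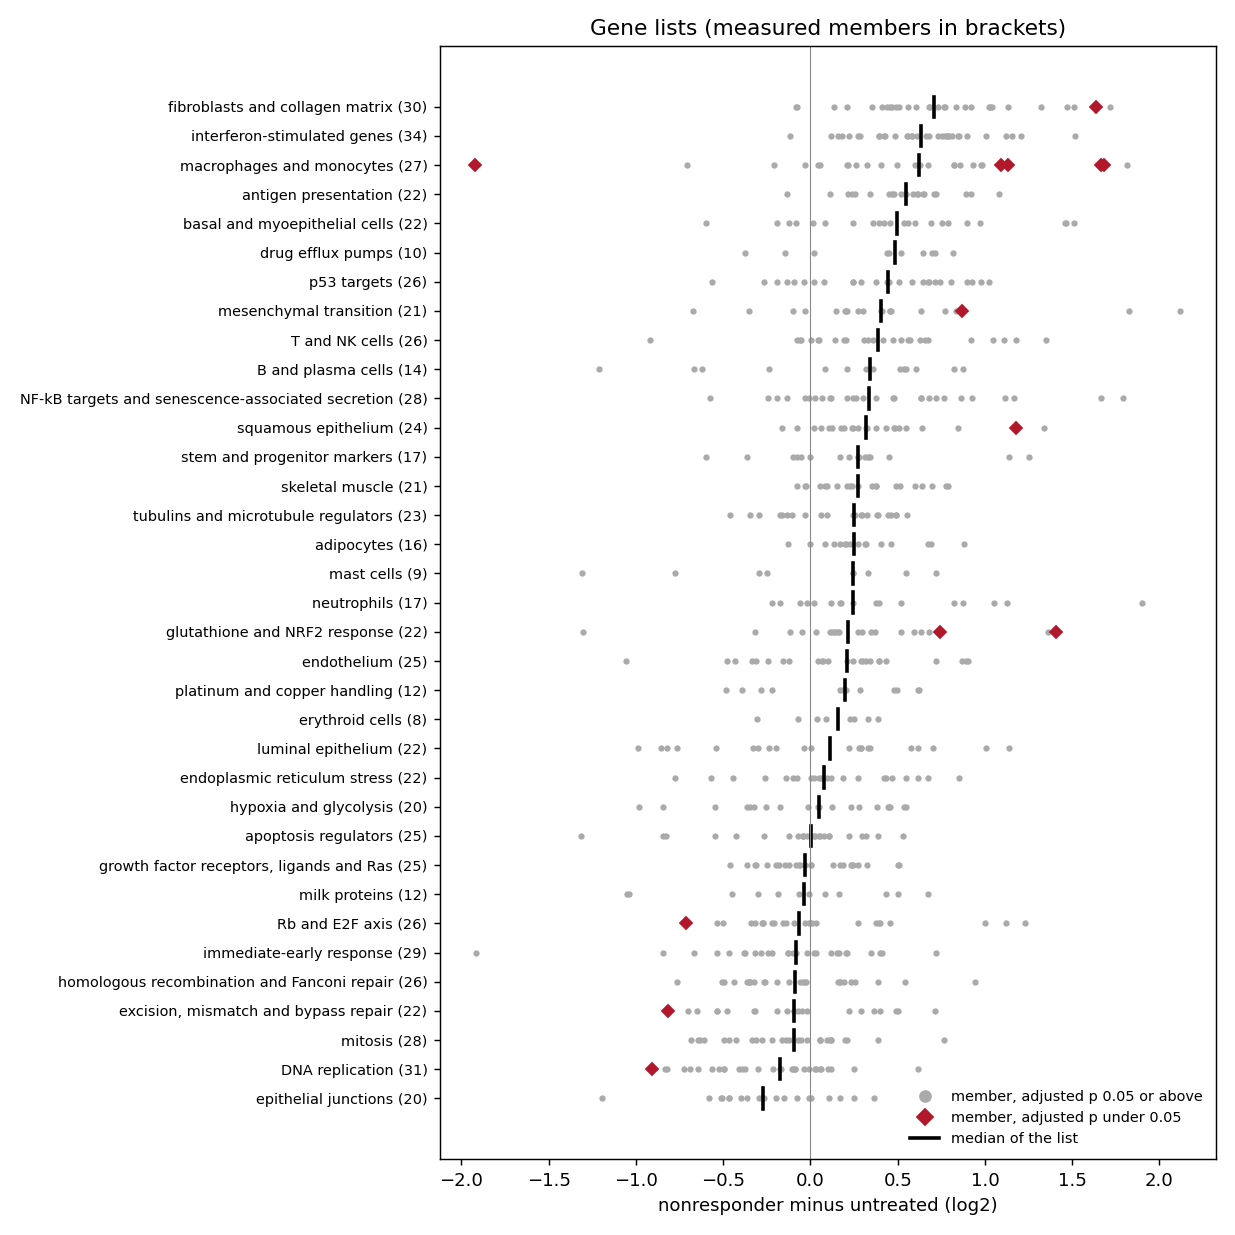
Each point is a measured member of 1 of 35 gene lists, placed by its difference between nonresponder and untreated tumours (log2), with diamonds for members at an adjusted p under 0.05 and black bars at the list medians. Medians run from -0.27 in epithelial junctions to 0.71 in fibroblasts and collagen matrix, and diamonds are few in every list.

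Fibroblast and collagen matrix genes had the highest median of all lists, 0.71, with 28 of 30 positive, and Prrx2 alone passed. Efemp1, a glycoprotein of elastic fibres, measured -3.99, -2.50 and -0.05 in untreated tumours and -1.85, -0.69 and 0.31 in nonresponders (1.72 ± 0.46, adjusted p = 0.0779). The gelatinase Mmp2 differed by 1.51 ± 0.44, and the collagen gene Col1a1 by 0.68. The list's mean was lowest in untreated tumour 4, at -2.36, and highest in nonresponder 4, at 0.15, and 5 of 9 nonresponders lay above every untreated tumour.

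Genes of mesenchymal transition had a median of 0.40, or 0.26 without untreated tumour 4. Tgfb3, a TGF-beta ligand, measured -0.60, -0.12 and 0.09 in untreated tumours and 0.10, 0.63 and 1.15 in nonresponders (0.87 ± 0.18, adjusted p = 0.0379), without overlap. It was the only one of 21 members that passed. Collagenase Mmp13 differed by 2.12 ± 0.60 (adjusted p = 0.0899) and the intermediate filament gene Vim by 0.77 ± 0.44, with spots at -0.40 and 1.04. Epithelial junction genes had a median of -0.27, the lowest of all lists, with 5 of 20 positive and none past the test; Cldn3 differed by -0.47 ± 0.19.

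Among the epithelial types, basal and myoepithelial genes had a median of 0.50 (18 of 22 positive, 0 passed) and luminal genes one of 0.11 (12 of 22 positive, 0 passed). At an unadjusted p under 0.05 in limma 4 luminal members were higher and 5 lower, beside 16.9% of all genes in either direction. The basal keratin Krt14 differed by 0.97 ± 0.30 (adjusted p = 0.112). The receptor tyrosine kinase Kit, a marker of luminal progenitors, measured 1.45, 2.14 and 2.57 in untreated tumours and 0.01, 1.46 and 1.67 in nonresponders (-0.99 ± 0.27, adjusted p = 0.0796). Squamous genes had a median of 0.32 with 22 of 24 positive, and the transglutaminase Tgm1 of the cornified envelope rose, from -1.78, -0.85 and 0.00 to -0.22, 0.21 and 1.03 (1.18 ± 0.26, adjusted p = 0.0454).

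Marker genes of neighbouring tissue ranged widely within both groups. Adipocyte genes had a list mean between -3.87 and -0.76 in untreated tumours and between -3.62 and -0.87 in nonresponders, and skeletal muscle genes one between -4.89 and -2.64 and between -4.00 and -2.44. In adipocyte genes 15 of 16 (93.8%) were positive with a median difference of 0.25, and against untreated tumours their median was -0.39 after 2 weeks and 0.62 after 3. In skeletal muscle genes 18 of 21 (85.7%) were positive with a median of 0.27. Neither list had a member that passed, and their part in the other differences was not tested.

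**Figure D4:**
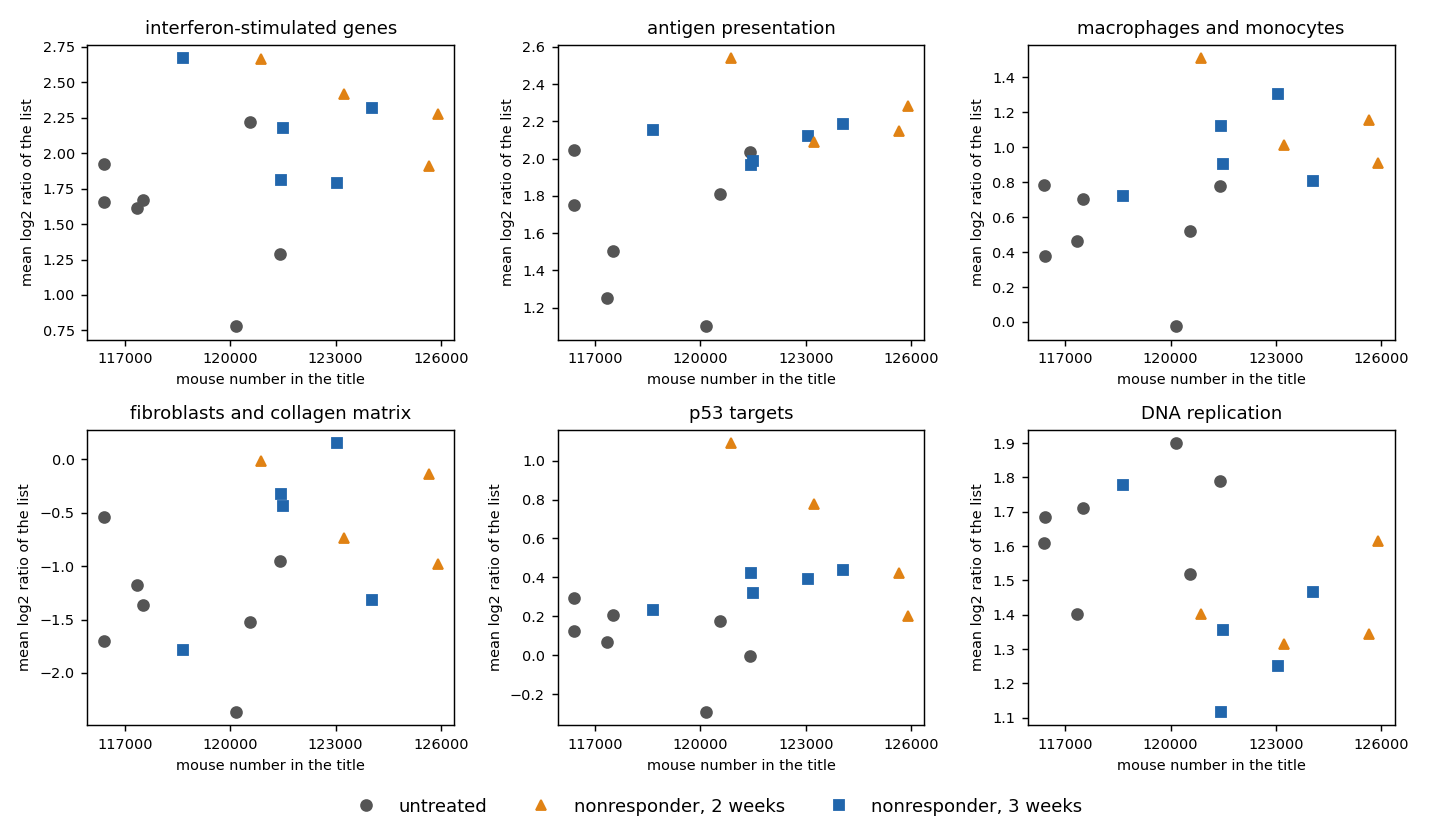
Each point is the mean log2 ratio of a gene list in 1 tumour, against the mouse number in the title, with untreated tumours as circles and nonresponders after 2 and 3 weeks as triangles and squares. Most nonresponders lie to the right of the untreated tumours; they lie above most untreated tumours in 5 panels and below most in the DNA replication panel, with some overlap in all 6.

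Genes of DNA replication, the process that E2F factors drive, had a median of -0.18, and 8 of 31 were positive. One member, Mcm6, a subunit of the replicative helicase, passed. It measured 1.94, 2.52 and 2.93 in untreated tumours and 0.92, 1.58 and 2.03 in nonresponders (-0.91 ± 0.19, adjusted p = 0.0401), so the groups overlapped at their edges. At an unadjusted p under 0.05 there were 12 lower members and 1 higher, beside 16.9% of all genes in either direction. Mcm4, of the same helicase, differed by -0.83 ± 0.20 (adjusted p = 0.0592), the licensing factor Cdt1 by -0.69 ± 0.18 (adjusted p = 0.0672) and its inhibitor Gmnn by -0.72 ± 0.19 (adjusted p = 0.0776). The helicase subunits Mcm5 and Mcm7 differed by 0.12 and 0.03, so the subunits did not share 1 value. The list's mean was 1.40 to 1.90 in untreated tumours and 1.12 to 1.78 in nonresponders, below every untreated tumour in 6 of 9.

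The E2F site TTTCCCGC stood, on either strand, in the promoters of 6 of 24 replication genes (25%) and of 1.24% of all genes, and in those of 3 of 51 genes that passed as lower (5.88%) and 2 of 66 that passed as higher (3.03%). Mcm6 was not among these 3. Rb and E2F genes had a median of -0.06 with 10 of 26 positive, and their differences ran from -0.71 to 1.23. At an unadjusted p under 0.05 in limma there were 5 higher and 2 lower members, beside 16.9% of all genes in either direction. E2f8, a repressor of the E2F family, fell from 1.07, 1.55 and 1.86 to 0.47, 0.68 and 1.10 (-0.71 ± 0.16, adjusted p = 0.0457). It was the only 1 of 26 members that passed, beside 0.343% of all genes that passed as lower. The retinoblastoma gene Rb1 differed by -0.28 ± 0.25, with spots from -0.39 to 0.18.

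Mitosis genes had a median of -0.10 with 11 of 28 positive, and none passed, 5 being lower at an unadjusted p under 0.05 (16.9% of all genes were, in either direction). The proliferation marker Mki67 measured 0.20, 0.38 and 0.92 in untreated tumours and -0.22, 0.00 and 0.30 in nonresponders (-0.50 ± 0.15, adjusted p = 0.100), and the topoisomerase Top2a differed by 0.11 ± 0.21. Outside the lists, and chosen after their values were seen, the condensin subunit Smc4 fell by 1.12 ± 0.22, the centromere protector Sgo2a by 0.92 ± 0.21 and the histone mRNA binding protein Slbp by 0.91 ± 0.17. All nonresponders lay below all untreated tumours for these 3 genes (adjusted p between 0.0273 and 0.0457). Cks1b, a partner of cyclin-dependent kinases, fell by 0.84 ± 0.18 (adjusted p = 0.0448). Other genes with such roles that did not pass were not counted, and members of the mitosis list ran from -0.69 to 0.76.

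DNA repair genes had medians of -0.09 for homologous recombination and Fanconi repair (9 of 26 positive, 0 passed, 2 higher and 5 lower at an unadjusted p under 0.05, beside 16.9% of all genes) and of -0.09 for excision, mismatch and bypass repair (7 of 22 positive). In the second list Msh6, which recognises mismatches, fell from 1.46, 1.98 and 2.22 to 0.60, 1.08 and 1.41 (-0.81 ± 0.16, adjusted p = 0.0336), without overlap. The excision repair nuclease Ercc1, which cuts at platinum adducts, differed by 0.50 ± 0.16 (adjusted p = 0.120), the helicase Blm by -0.51 ± 0.13 (adjusted p = 0.0727) and Brca1 by 0.26 ± 0.31, with spots of opposite sign. Outside both lists, Ube2t, the conjugating enzyme of the Fanconi pathway, fell by 0.98 ± 0.21 (adjusted p = 0.0433) and Rnf168, a ubiquitin ligase at DNA breaks, by 0.86 ± 0.19 (adjusted p = 0.0460); both were chosen after their values were seen.

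Targets of p53, the factor the transgene disables, had a median of 0.45 with 20 of 26 positive. None passed, while 11 were higher and 1 lower at an unadjusted p under 0.05, beside 16.9% of all genes. Ei24 measured -0.78, -0.47 and 0.05 in untreated tumours and -0.24, 0.14 and 0.78 in nonresponders (0.65 ± 0.17, adjusted p = 0.0779). The cyclin-dependent kinase inhibitor Cdkn1a measured -1.68, -0.46 and 0.33 against -0.63, 0.61 and 1.32 (0.98 ± 0.33, adjusted p = 0.139), cyclin G1, Ccng1, differed by 1.02 ± 0.29 (adjusted p = 0.0903) and the p53 ligase Mdm2 by 0.58 ± 0.31. The list's mean was -0.29 to 0.30 in untreated tumours and 0.20 to 1.09 in nonresponders, above every untreated tumour in 7 of 9. Apoptosis regulators had a median of 0.00 and no member that passed, with Casp2 at -0.83 ± 0.20 (adjusted p = 0.0630).

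Genes of drug handling are those most often named in resistance to these agents. Of 10 efflux pumps, 8 were positive with a median of 0.48 and none passed (3 higher at an unadjusted p under 0.05, beside 16.9% of all genes). Abcg2 measured -2.60, -2.15 and -0.91 in untreated tumours and -1.85, -1.15 and -1.10 in nonresponders (0.64 ± 0.22, adjusted p = 0.133). The taxane exporter genes Abcb1a and Abcb1b differed by 0.71 ± 0.64 and 0.45 ± 0.27, and Abcb1a ran from -4.44 to 0.03 in untreated tumours alone. The spots of Abcb1b disagreed in sign, from -0.23 to 0.78. Neither could be distinguished from no change at this spread. The pump list stood at -1.20 to -0.20 in untreated tumours and at -0.60 to 0.13 in nonresponders.

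Platinum and copper handling genes had a median of 0.20 and none passed. The copper importer Slc31a1 differed by 0.21 ± 0.15 (spots from -0.16 to 0.57), the copper ATPases Atp7a and Atp7b by -0.39 ± 0.23 and -0.28 ± 0.18, and Lrrc8a, a channel subunit through which cisplatin can enter cells, by 0.62 ± 0.15 (adjusted p = 0.0630). In the glutathione and NRF2 list 2 of 22 rose, beside 0.468% of all genes. They were Gsta4 and the peroxidase Gpx1, which went from -1.01, -0.83 and -0.19 to -0.23, -0.01 and 0.45 (0.74 ± 0.16, adjusted p = 0.0448). The list's median was 0.22 with 18 of 22 positive. At an unadjusted p under 0.05 in limma 6 members were higher and 0 lower, beside 16.9% of all genes in either direction. Tubulins and microtubule regulators, the targets of paclitaxel, had a median of 0.25 and no member that passed, with Tubb3 at 0.25 ± 0.20 and the tubulin cofactor Tbcb at 0.49 ± 0.15 (adjusted p = 0.102).

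In the remaining lists no member passed. NF-kB targets and secreted factors of senescence had a median of 0.34, with the protease inhibitor Serpinb2 between -2.77 and -1.73 in untreated tumours and between -1.84 and 1.57 in nonresponders (1.79 ± 0.47, adjusted p = 0.0753). The immediate-early factor Egr2 differed by -1.92 ± 0.45 (adjusted p = 0.0532) in a list with a median of -0.08. Stem and progenitor markers had a median of 0.27, endoplasmic reticulum stress genes 0.08, hypoxia and glycolysis genes 0.05, growth factor receptors, ligands and Ras -0.03 and milk proteins -0.04. The receptors Erbb2, Egfr and Esr1 differed by 0.00 ± 0.19, -0.12 ± 0.18 and -0.54 ± 0.24. Spots of all 3 disagreed in sign, from -0.40 to 0.15 for Erbb2, -0.57 to 0.32 for Egfr and up to 0.43 for Esr1.

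The 2 treatment lengths were set beside each other next. Against the untreated tumours, which both contrasts share, 2 genes passed after 2 weeks (0.0109% of 18374) and 0 after 3 weeks in limma, with 2619 (14.3%) and 2153 (11.7%) at an unadjusted p under 0.05 and a smallest adjusted p of 0.134 after 3 weeks. The 2 were Nme4 (1.62 ± 0.20, adjusted p = 0.00992) and H2-Oa, a modulator of MHC class II peptide loading (1.65 ± 0.23, adjusted p = 0.0191), which the naming rule had not chosen. H2-Oa was at 0.62 after 3 weeks.

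In the direct test of 3 weeks against 2 weeks, 0 of 18374 genes passed (smallest adjusted p = 0.999), with 729 (3.97%) at an unadjusted p under 0.05. The smallest p belonged to the calcium channel gene Cacna1h (unadjusted p = 0.000218), whose spots disagreed in sign between nonresponders and untreated tumours and which differed from untreated by 0.92 after 2 weeks and by -0.46 after 3, and to the transcription factor Rfx2 (unadjusted p = 0.000222), at 1.17 and -0.09. Serpinb2 was at 2.72 after 2 weeks and at 1.05 after 3 (unadjusted p of the difference = 0.00392). With 4 and 5 tumours, a difference between the lengths was not detectable across genes, which does not show that they were alike.

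Responders were compared with nonresponders directly. Of 18498 genes 0 passed in limma (smallest adjusted p = 0.315), with 1170 (6.33%) at an unadjusted p under 0.05, and 3 responders limit what can be seen. The smallest p belonged to Eml2, a microtubule-associated protein (-1.62 in responders minus nonresponders, unadjusted p = 1.7e-05), and to the gene of the Golgi protein Paqr3 (1.38, unadjusted p = 4.08e-05), whose spots disagreed in sign between nonresponders and untreated tumours. Of the 149 genes that passed between nonresponders and untreated tumours, 7 had an unadjusted p under 0.05 here. Chil3 was lower still in responders (-1.96, unadjusted p = 0.00092), while Nme4 was at -0.11 and Lyz1 at 0.20. Nonresponder 1 and responder 3 carry the same mouse number and are marked as separate tumours of it.

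A property that the comparison did not use was the genomic span of the genes. The genes that passed as higher had a median span of 11.2 kb (85 of 86 with a span in GRCm38.p6) and the lower ones one of 33.3 kb (63 of 63), beside 19 kb over all genes tested. Genes were ordered by span into 10 bins of equal size. In bin 2, with a median of 3.80 kb, the median difference was 0.0925 and 20 genes passed as higher and 3 as lower. In bin 10, the longest genes, with a median of 197 kb, the median difference was -0.0511, and 4 passed as higher and 8 as lower. Bin 1, the shortest genes, did not continue this order, with a median difference of 0.00317, 4 higher and 1 lower. Within single tumours, the median of bin 1 exceeded that of bin 10 by 0.16 to 0.31 in untreated tumours and by 0.07 to 0.51 in nonresponders, the highest in nonresponders 8 and 9. RNA quality is not analysed here, and its part in this pattern was not tested.

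**Figure D5:**
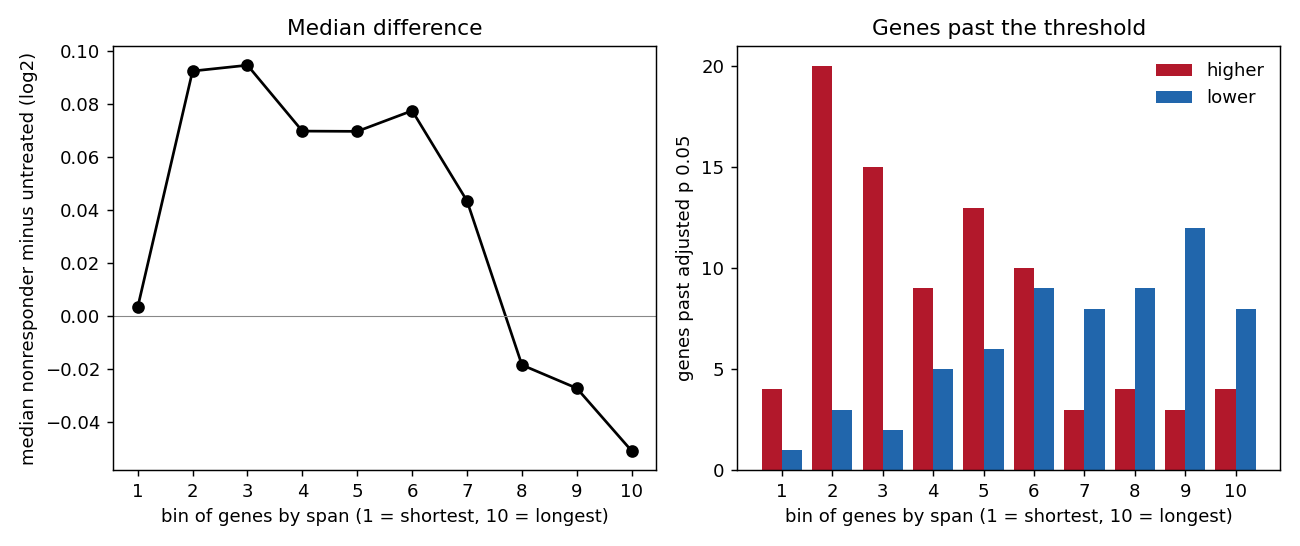
Left, the median difference between nonresponder and untreated tumours (log2) in 10 bins of genes ordered by genomic span, from the shortest (1) to the longest (10); right, the number of genes in each bin at an adjusted p under 0.05, higher or lower in nonresponders. The median is 0.0925 in bin 2 and -0.0511 in bin 10, and higher genes are most frequent in bins 2 and 3.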

How the data were processed

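The authors deposited 1 table of log2 ratios, 1 value per spot and array; the log2 scale is inferred from the values, and log base, direction, normalization, filters and scanner were not given in the sources used here. Per the labels, RNA was extracted with a column kit and no dye was swapped. Every column of the table was matched to a sample by its accession. Exact zeros were set to missing, spots with 1 gene in the platform annotation (33653; 56 had several and 11511 none) measured on at least 70% of the 16 arrays were kept (32097 spots), with their mean taken per gene (18394 genes). The gene identifiers matched the GRCm38.p6 gene table for 99.6%.

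Groups were compared with limma 3.58.1 (lmFit, eBayes; two-sided, Benjamini-Hochberg over all genes, threshold 0.05) under R 4.3.3, in fits of 2 or 3 groups, with no pairing, and the script was tested on simulated data. Named genes were the 12 largest differences in each direction and the 10 smallest p among genes that passed and were measured in 6 untreated and 8 nonresponder tumours, up to 4 members of a list that passed or else the member with the smallest p, a fixed set of marker and drug genes, and the 2 smallest p of the comparisons without calls. Other genes are said to be chosen after their values were seen or serve as members of a list. For the former, genes of like roles that did not pass were not counted. Members and lists were chosen with earlier results of these data known. Replicates were numbered in accession order. Alternatives covered zeros, filters, spots, scaling, weights, title style, mouse number and each array left out.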

Additional observations from a re-analysis of the deposited data

Results flagged for a closer look

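Of 184 pairs of a named gene and a group, 14 held 1 tumour far from the others of its group by Dixon's criterion, and chance alone flags about 1 in 20. Among untreated tumours, Cldn4 was at 8.32 in tumour 3, where the next highest was 2.11. Tumour 7 stood apart for Vldlr (-1.10), Ei24 (0.05) and Egr2 (2.30), and tumour 2 for Cnot6l (2.45) and Rfx2 (-0.48). Zfp948 was at 0.28 in tumour 1 and Prom1 at -1.19 in tumour 4. Among nonresponders, Parp11 was at 2.52 in tumour 9 and Cfb at -1.59 in tumour 8. Tumour 6 was low for Slfn2 (0.79) and Ifit3 (0.64), and tumour 2 stood apart for Stxbp3 (0.57) and Dnajb9 (-1.10).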

How the results depend on the processing

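No paired analysis was possible because the mouse numbers of the 16 tumours all differ and the labels pair none across the groups. The 149 calls between nonresponders and untreated tumours became 407 with spots measured on every array, 49 with the most variable spot of a gene, 661 with array weights, 283 over all 19 arrays, 262 within the 12 arrays whose titles have no hyphen before the mouse number, 0 within the 4 that have one (833 at an unadjusted p under 0.05), 0 with the mouse number as a covariate and 0 in the shared range of mouse numbers (3 untreated and 2 nonresponder tumours, too few to read); the other 7 settings gave 115 to 196. Leaving out 1 array gave 2 (without untreated 6) to 461 (without untreated 1), with 23 to 64 without untreated 2, 4 or 5 or nonresponders 3, 4, 5, 6, 7 or 9. The cause was not tested. The 2 calls after 2 weeks became 25, 7, 1 and 7 with every-array spots, the most variable spot, quantile normalization and a robust variance trend, and 0 (without nonresponder 6) to 20 (without untreated 3) with 1 array left out. After 3 weeks there were 0 throughout. Between the lengths there was 1 with a lower share of measured arrays per spot and 1 with the most variable spot. Between responders and nonresponders there were 0 to 7 with 1 array left out (7 without responder 1), and 1 without the 2 tumours of 1 mouse number. No named gene that passed changed sign, and 2 of these 37 passed in all 16 fits without 1 array. Of 55 named genes that did not pass, 24 changed sign and 15 passed under at least 1 setting. Of 35 list medians, 19 changed sign under at least 1 setting, among them mitosis (0.04 in titles without the hyphen) and NF-kB targets (-0.32 in titles with it); interferon-stimulated, antigen presentation, macrophage, fibroblast, p53 target and DNA replication genes did not.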
